A study of Mus musculus with 10 samples.

Results

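The genes described here are 43 genes of the synaptic vesicle and of transmitter release, taken from a table of 53801 genes by their symbols. All 43 were found as single rows, and the synaptotagmins were left out by the same rule. The libraries were made from cells of the dorsal brain of wild-type mice that were electroporated in utero at embryonic day 12 with StarTrack, a set of reporter plasmids that marks the progeny of targeted progenitors. The cells were sorted at embryonic day 14 as NG2+ (5 libraries) or GFAP+ (5 libraries), and every library carries the cell type neural stem cells and batch 1 in its labels. Cspg4 encodes NG2, a chondroitin sulphate proteoglycan of the cell surface, and Gfap encodes a filament protein typical of astrocytes. The sources used here do not give the strain, the number of animals behind a library, or whether reporters or antibodies guided the sort. The p-values therefore measure the spread between these libraries, which may be technical. The comparison asks whether cells sorted by the 2 markers differ in genes of the release machinery.

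A synaptic vesicle is filled with transmitter by a proton-driven transporter, tethered and primed at the active zone, and fused with the plasma membrane by SNARE proteins when calcium enters. Complexins and synaptotagmins time that fusion, NSF and its SNAP adaptors take the spent SNARE complex apart, and clathrin, dynamin and their partners recover the membrane. In embryonic cortex many of these genes are switched on as progenitors leave the cell cycle and become neurons, long before mature synapses form. Several of the proteins also serve axon and membrane growth. REST, a repressor that binds a long DNA element called RE1, holds many such genes down in cells that are not neurons.

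Library totals ranged from 14256176 to 17569730 counts in NG2 and from 12945436 to 16189859 counts in GFAP libraries. A pair of libraries stood apart. NG2 replicate 5 had reads for 18903 genes, against 22988 to 24444 in the other NG2 and 23259 to 24208 in the GFAP libraries, and its log2 CPM correlated with the other libraries at 0.956 to 0.963, against at least 0.977 among the others (across genes, which are not independent). GFAP replicate 2 held the lowest value of the 10 libraries for 21 of the 39 members that were tested, where it held the lowest value for 13.1% of all tested genes. Cspg4 averaged 6.75 ± 1.47 CPM over NG2 and 1.07 ± 0.356 CPM over GFAP libraries (SD, n = 5 each), and Gfap 0.0821 and 0.128 CPM, from 6 and 10 reads in all.

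Markers of neurons and of progenitors were both abundant, where the labels give neural stem cells. Postmitotic neuron markers summed to 6868 to 9804 CPM over NG2 and 5387 to 7004 CPM over GFAP libraries, and all 14 found in the table had positive fold changes (median 0.35 on the log2 scale, 0 past the adjusted threshold by edgeR, 9 at an unadjusted p under 0.05, 5 by DESeq2). Radial glia markers summed to 1123 to 1877 CPM in NG2 and 1683 to 2337 CPM in GFAP libraries, and all 11 had negative fold changes (median -0.27 on the log2 scale). By edgeR 0 of the 11 passed, 4 were lower at an unadjusted p under 0.05, and DESeq2 called 1 lower. Intermediate progenitor markers summed to 1499 to 1633 CPM in NG2 and 1705 to 2021 CPM in GFAP libraries, and 5 of 6 had negative fold changes (median -0.22), with 0 past the threshold by edgeR, 3 lower at an unadjusted p under 0.05 and 2 lower by DESeq2. Those 2, Eomes and Btg2, had every NG2 library below every GFAP library (-0.40, SE 0.09, and -0.45, SE 0.09, on the log2 scale). Among all tested genes 48.5% had positive fold changes, 6.45% were higher and 6.33% lower at an unadjusted p under 0.05, and DESeq2 called 1.6% higher and 1.01% lower. Every NG2 library lay above every GFAP library for 3 of the 14 neuron markers (21.4%) and for 1.52% of all tested genes. Every NG2 library lay below for 2 of the 6 intermediate progenitor markers and for 1.76% of all tested genes. These marker lists were chosen with earlier results of these data known, so their counts are description only. The part of any of these cell types in the results below was not tested. In bulk samples such as these, fewer cells of a type and less RNA per cell cannot be told apart.

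Promoter sequence was drawn from RefSeq on GRCm38.p6, which held windows for 37 of the 43 members. The stretches shown run over 250 bases before the RefSeq start site on the gene's own strand, for 4 members whose NG2 and GFAP libraries did not overlap. RefSeq start sites can differ from the deposited gene ends. For Syn1 the deposited gene reaches to 20921004, so part of the stretch lies inside it, and distances below are from the RefSeq site. Capitals mark the left arm of RE1 (TTCAGCACC), the cyclic AMP response element (CRE, TGACGTCA) or a GC box (GGGGCGGGG), each searched on both strands without mismatches.
Syn1, chrX:20920919-20921168 (minus strand): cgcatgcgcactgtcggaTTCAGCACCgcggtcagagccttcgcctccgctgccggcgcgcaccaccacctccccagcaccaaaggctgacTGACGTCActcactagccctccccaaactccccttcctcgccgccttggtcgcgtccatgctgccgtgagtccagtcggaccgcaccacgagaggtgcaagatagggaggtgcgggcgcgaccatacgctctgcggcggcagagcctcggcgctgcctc
Cplx1, chr5:108550028-108550277 (minus strand): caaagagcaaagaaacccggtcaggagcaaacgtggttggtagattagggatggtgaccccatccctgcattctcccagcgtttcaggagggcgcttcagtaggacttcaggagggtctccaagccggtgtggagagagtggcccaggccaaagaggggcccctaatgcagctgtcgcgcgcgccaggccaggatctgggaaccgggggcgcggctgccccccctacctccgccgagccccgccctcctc
Syngr1, chr15:80091084-80091333 (plus strand): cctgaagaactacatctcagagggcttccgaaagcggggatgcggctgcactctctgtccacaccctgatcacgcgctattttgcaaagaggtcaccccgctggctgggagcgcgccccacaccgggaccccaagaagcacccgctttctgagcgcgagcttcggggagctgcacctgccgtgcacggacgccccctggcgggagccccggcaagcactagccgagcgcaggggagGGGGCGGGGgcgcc
Stx1a, chr5:135023232-135023481 (plus strand): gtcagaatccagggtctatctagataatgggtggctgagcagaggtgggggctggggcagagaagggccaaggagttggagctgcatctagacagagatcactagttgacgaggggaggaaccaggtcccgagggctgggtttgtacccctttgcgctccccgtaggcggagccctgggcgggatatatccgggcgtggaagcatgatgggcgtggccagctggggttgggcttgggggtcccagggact

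The left arm of RE1 was found in the full windows of 3 member genes, Syn1, Ppfia3 and Unc13a (8.11%), and of 0.433% of the 27025 genes with a window. Some genes have several windows (44 for the 37 members), and a gene was counted where any of them held the letters. In Syn1 it began 232 bases before the start site. A CRE, which reads the same on both strands, was found for Syn1, Napa and Sh3gl2 (8.11%) and for 2.03% of all genes, and that of Syn1 began 159 bases before the start site. The 2 elements of Syn1 do not overlap. A GC box was found for 16 of the 37 genes, among them Syngr1, Sv2a, Syp and Stx1a (43.2%), and for 12.9% of all genes. The GC box of Stx1a lies at the start site and so outside the bases printed, and none of these letters occurs in the stretch of Cplx1. The whole printed stretch of Syngr1, with its GC box, lies inside Rpl3 (chr15:80077791-80091868), a ribosomal protein gene on the opposite strand. Member genes had a median GC content of 63.7% (mean over each gene's windows), against a median of 52.7% over the 32851 single windows.

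Among the 43 genes, Syngr3 was the one that passed the test over all genes. Syngr3 encodes synaptogyrin-3, a membrane protein of the synaptic vesicle, and it rose 1.498-fold in the NG2 libraries. Cplx1 (complexin-1, a clamp and promoter of SNARE fusion), Syn1 (synapsin-1, which ties vesicles to each other and to actin), Syngr1 (synaptogyrin-1) and Stx1a (syntaxin-1A, the plasma membrane SNARE of release) had all 5 NG2 libraries above all 5 GFAP libraries without passing that test. Of 39 tested members, 5 thus showed no overlap with NG2 above (12.8%), where 1.52% of all tested genes did. Of the 14 postmitotic neuron markers 3 did (21.4%). With NG2 below, 0 members showed no overlap, where 1.76% of all tested genes did. By edgeR's quasi-likelihood test with Benjamini-Hochberg adjustment over 16187 genes, 1 member was higher and 0 lower, against 0.0741% of all tested genes in each direction. At an unadjusted p under 0.05, 10 members were higher and 0 lower, against 6.45% and 6.33% of all tested genes. DESeq2 called 5 members higher (Syngr3, Cplx1, Syn1, Syngr1 and Sv2a) and 0 lower, against 1.6% and 1.01% of the genes it adjusted.

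Syngr3 (ENSMUSG00000007021, chr17:24685092-24689955 on the minus strand of GRCm38) had 72.9, 83.3, 93.5, 79.8 and 76.02 CPM in NG2 replicates 1 to 5, against 59.6, 48.7, 58.5, 51.4 and 52.6 CPM in GFAP replicates 1 to 5. The lowest NG2 library lay above the highest GFAP library. Its log2 fold change was 0.58 (SE 0.10, edgeR, Benjamini-Hochberg adjusted p = 0.0379), from 734 to 1349 reads in a library. Leaving out NG2 replicate 2, 3 or 4 or any of the GFAP replicates ended the call, with edgeR Benjamini-Hochberg adjusted p of 0.114, 0.123 and 0.0695 without those NG2 replicates and 0.0738, 0.0746, 0.115, 0.148 and 0.107 without GFAP replicates 1 to 5. Over all 10 fits that leave out 1 library, its log2 fold change stayed between 0.53 and 0.62. No other annotated gene overlaps it.

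**Figure D1:**
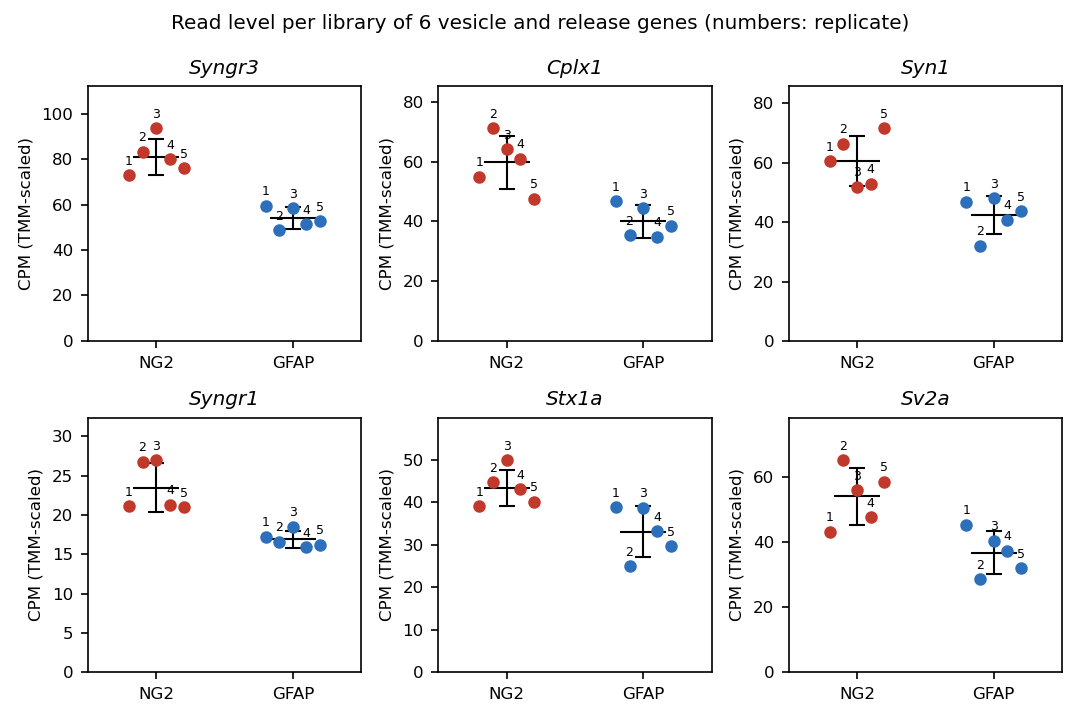
TMM-scaled read level (CPM, y axis) of 6 members in each NG2 and GFAP library, with points numbered by replicate and bars at the mean ± SD (n = 5). For Syngr3, Cplx1, Syn1, Syngr1 and Stx1a every NG2 point lies above every GFAP point, and for Sv2a NG2 replicate 1 at 43.3 CPM lies below GFAP replicate 1 at 45.4 CPM.

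The fusion machinery held 10 members, all tested. All 10 had positive fold changes (median 0.23 on the log2 scale), with 8 positive and 2 negative without NG2 replicate 5. By edgeR 0 passed, while 5 (50%) had an unadjusted p under 0.05 and DESeq2 called 1. Over all genes 6.45% were higher at that unadjusted p, and DESeq2 called 1.6% of the genes it adjusted higher. Cplx1 (ENSMUSG00000033615, chr5:108518554-108550024 on the minus strand of GRCm38) had 55.1, 71.1, 64.3, 60.96 and 47.6 CPM in NG2 replicates 1 to 5, against 46.8, 35.4, 44.5, 34.9 and 38.5 CPM in GFAP replicates 1 to 5. The margin between the groups was small, since NG2 replicate 5 at 47.6 CPM stood beside GFAP replicate 1 at 46.8 CPM. Its log2 fold change was 0.58 (SE 0.13, edgeR Benjamini-Hochberg adjusted p = 0.122, DESeq2 adjusted p = 0.00410), and it passed by edgeR without NG2 replicate 5 (0.66 on the log2 scale, adjusted p = 0.0209).

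Stx1a (ENSMUSG00000007207, chr5:135023482-135051100 on the plus strand of GRCm38) had 39.02, 44.7, 49.9, 43.02 and 40.1 CPM in NG2 replicates 1 to 5, against 38.8, 24.9, 38.7, 33.2 and 29.6 CPM in GFAP replicates 1 to 5. GFAP replicates 1 and 3 came within 1 CPM of NG2 replicate 1, and GFAP replicate 2 was the lowest library. The log2 fold change was 0.39 (SE 0.13, edgeR Benjamini-Hochberg adjusted p = 0.272). Snap25, the SNARE that supplies a pair of helices to the release complex, had 184, 196, 205, 171 and 144 CPM in NG2 replicates 1 to 5, against 153, 102, 152, 151 and 166 CPM in GFAP replicates 1 to 5. The groups overlapped, NG2 replicate 5 lying below 4 of the 5 GFAP libraries, and the log2 fold change was 0.31 (SE 0.13, edgeR Benjamini-Hochberg adjusted p = 0.339). Vamp2, the vesicle SNARE synaptobrevin-2, had 294, 312, 287, 294 and 229 CPM in NG2 replicates 1 to 5, against 249, 203, 253, 233 and 235 CPM in GFAP replicates 1 to 5. NG2 replicate 5 again lay among the GFAP libraries, while the other NG2 libraries lay above all of them (0.27, SE 0.10, adjusted p = 0.296, edgeR).

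Snap47, a SNAP-25 relative of broad expression, had the highest level per unit length of all 43 members. It had 228, 313, 306, 273 and 240.3 CPM in NG2 replicates 1 to 5, against 237, 222, 237, 222 and 228 CPM in GFAP replicates 1 to 5. NG2 replicates 2, 3, 4 and 5 lay above the GFAP libraries and NG2 replicate 1 among them (log2 fold change 0.25, SE 0.10, edgeR Benjamini-Hochberg adjusted p = 0.322). Cplx2, the other complexin tested, averaged (mean ± SD, n = 5 per group here and below) 71.7 ± 10.2 CPM over NG2 and 62.3 ± 13.7 CPM over GFAP libraries (0.20, SE 0.15). The genes for taking SNARE complexes apart had fold changes near the size of their errors. The ATPase gene Nsf averaged 93.9 ± 14.6 CPM over NG2 and 87.9 ± 4.30 CPM over GFAP libraries (0.10 on the log2 scale, SE 0.11). The adaptor gene Napa (alpha-SNAP) averaged 248 ± 35.2 CPM over NG2 and 229 ± 13.9 CPM over GFAP libraries (0.12, SE 0.10) and Napb (beta-SNAP) 52.8 ± 5.39 CPM over NG2 and 47.1 ± 3.87 CPM over GFAP libraries (0.17, SE 0.10). None of the 3 passed by edgeR or DESeq2. Vamp1, a synaptobrevin of spinal and brainstem neurons, averaged 9.57 ± 3.32 CPM over NG2 and 9.03 ± 3.38 CPM over GFAP libraries (0.08, SE 0.28).

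Vesicle membrane proteins included the one called member. Of 7, 6 were tested, 5 had positive and 1 a negative fold change (median 0.39), and 1 was higher by edgeR and 3 by DESeq2. Over all genes, edgeR called 0.0741% higher and DESeq2 1.6% of those it adjusted. Syngr1 (ENSMUSG00000022415, chr15:80091334-80119501 on the plus strand of GRCm38) had 21.1, 26.8, 26.98, 21.3 and 21.02 CPM in NG2 replicates 1 to 5, against 17.3, 16.6, 18.5, 15.9 and 16.2 CPM in GFAP replicates 1 to 5. The lowest NG2 library, at 21.0 CPM, lay above the highest GFAP library, at 18.5 CPM, and its log2 fold change was 0.47 (SE 0.13, edgeR Benjamini-Hochberg adjusted p = 0.164, DESeq2 adjusted p = 0.0210). Syngr1 overlaps Rpl3, a ribosomal protein gene on the opposite strand, so part of its reads is uncertain. Rpl3 itself averaged 441 ± 72.5 CPM over NG2 and 448 ± 57.2 CPM over GFAP libraries (log2 fold change -0.03, SE 0.12).

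Sv2a, a vesicle glycoprotein and the binding site of the drug levetiracetam, had 43.3, 65.2, 55.98, 47.7 and 58.6 CPM in NG2 replicates 1 to 5, against 45.4, 28.6, 40.5, 37.4 and 32.00 CPM in GFAP replicates 1 to 5. GFAP replicate 1 overlapped with NG2 replicate 1, and the other 4 GFAP libraries lay below all NG2 libraries. Its log2 fold change was 0.56 (SE 0.14, edgeR Benjamini-Hochberg adjusted p = 0.151, DESeq2 adjusted p = 0.0160). Its paralogue Sv2b averaged 2.22 ± 0.712 CPM over NG2 and 3.75 ± 1.88 CPM over GFAP libraries and was the tested member with the lowest fold change (-0.75, SE 0.36, edgeR Benjamini-Hochberg adjusted p = 0.405). That mean rests on 175 reads in the NG2 and 285 reads in the GFAP group, of which 110 lay in GFAP replicate 1. Syp, which encodes synaptophysin, averaged 105 ± 19.5 CPM over NG2 and 86.9 ± 13.5 CPM over GFAP libraries (0.28, SE 0.14), and Scamp5, a carrier membrane protein of neurons, 116 ± 19.4 CPM over NG2 and 93.6 ± 6.47 CPM over GFAP libraries (0.32, SE 0.11).

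Proteins on the vesicle surface comprised 8 members, of which 7 were tested. All 7 had positive fold changes (median 0.32), with 5 positive and 2 negative without GFAP replicate 2. By edgeR 0 passed, 1 (14.3%) had an unadjusted p under 0.05 and DESeq2 called 1. Over all genes 6.45% were higher at that unadjusted p, and DESeq2 called 1.6% of the genes it adjusted higher. Syn1 (ENSMUSG00000037217, chrX:20860511-20921004 on the minus strand of GRCm38) had 60.5, 66.4, 51.9, 52.9 and 71.6 CPM in NG2 replicates 1 to 5, against 46.9, 32.03, 48.1, 40.9 and 43.7 CPM in GFAP replicates 1 to 5. The highest GFAP library, replicate 3 at 48.1 CPM, lay just under NG2 replicate 3 at 51.9 CPM. Its log2 fold change was 0.52 (SE 0.13, edgeR Benjamini-Hochberg adjusted p = 0.136, DESeq2 adjusted p = 0.0131) and ranged from 0.31 by voom with sample weights to 0.58 over the alternatives. Syn1 overlaps Araf and Timp1 on the opposite strand, and Araf differed by -0.01 on the log2 scale (SE 0.11).

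The other synapsins did not pass by edgeR or DESeq2. Syn2 had 65.2, 71.5, 71.3, 63.2 and 84.3 CPM in NG2 replicates 1 to 5, against 83.7, 61.4, 69.9, 75.8 and 62.1 CPM in GFAP replicates 1 to 5. NG2 replicate 5 and GFAP replicate 1 were the highest of their groups, the groups overlapped over most of their range, and the log2 fold change was 0.01 (SE 0.11), which turned negative when scaled by library size alone (-0.0354) or by upper quartile (-0.00390). Syn3 averaged 9.87 ± 2.70 CPM over NG2 and 7.53 ± 1.28 CPM over GFAP libraries (0.39, SE 0.21). The Rab3 proteins are small GTPases that hand vesicles to the active zone. Rab3c averaged 114 ± 22.9 CPM over NG2 and 105 ± 22.3 CPM over GFAP libraries (0.12, SE 0.17) and Rab3b 16.04 ± 2.72 CPM over NG2 and 13.9 ± 1.25 CPM over GFAP libraries (0.20, SE 0.15). Rab3a, the main isoform of adult synapses, had 78 reads in the NG2 and 47 reads in the GFAP group (0.67, SE 0.44), and Sncb, which encodes beta-synuclein, averaged 2.61 ± 0.522 CPM over NG2 and 2.09 ± 0.428 CPM over GFAP libraries (0.32, SE 0.30).

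No active zone or priming gene passed. Of 10, 9 were tested, 6 had positive and 3 negative fold changes (median 0.10), and 0 passed by edgeR, at an unadjusted p under 0.05 or by DESeq2. Erc1, an active zone scaffold that is also expressed outside the nervous system, had 115, 111, 96.7, 97.3 and 106 CPM in NG2 replicates 1 to 5, against 112, 73.4, 105, 111 and 105 CPM in GFAP replicates 1 to 5. The groups overlapped, GFAP replicate 2 lying far below the other 9 libraries, and the log2 fold change was 0.06 (SE 0.11). Without that library it was -0.04, and the median of the 9 genes was -0.04, with 4 positive and 5 negative. The giant scaffold genes are Bsn (bassoon), which averaged 26.5 ± 7.43 CPM over NG2 and 23.7 ± 4.98 CPM over GFAP libraries (0.16, SE 0.20), and Pclo (piccolo), which averaged 47.7 ± 8.52 CPM over NG2 and 44.6 ± 11.9 CPM over GFAP libraries (0.10, SE 0.19).

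Munc13 proteins open syntaxin for SNARE assembly. Unc13a averaged 40.2 ± 5.77 CPM over NG2 and 35.9 ± 7.54 CPM over GFAP libraries (0.16, SE 0.16) and Unc13b 39.2 ± 3.99 CPM over NG2 and 44.3 ± 6.36 CPM over GFAP libraries (-0.18, SE 0.12). Rims2, a Rab3 effector, averaged 31.3 ± 7.82 CPM over NG2 and 36.8 ± 3.89 CPM over GFAP libraries (-0.23, SE 0.16), and the scaffold gene Erc2 35.5 ± 3.74 CPM over NG2 and 29.9 ± 5.91 CPM over GFAP libraries (0.25, SE 0.15). The liprin gene Ppfia3 averaged 26.6 ± 5.74 CPM over NG2 and 22.03 ± 3.36 CPM over GFAP libraries (0.27, SE 0.16), and Cadps, a factor for dense-core vesicle priming, 52.5 ± 4.24 CPM over NG2 and 53.8 ± 15.1 CPM over GFAP libraries (-0.03, SE 0.18). The 8 genes given by their means all had NG2 and GFAP libraries that overlapped.

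Both tested genes for loading transmitter had negative fold changes (median -0.22 on the log2 scale, and -0.13 without NG2 replicate 5), and 0 passed by edgeR, at an unadjusted p under 0.05 or by DESeq2. Slc17a6, which encodes the vesicular glutamate transporter VGLUT2, had 129, 149, 143, 139.6 and 113 CPM in NG2 replicates 1 to 5, against 164, 141, 141, 152 and 193 CPM in GFAP replicates 1 to 5. NG2 values reached into the GFAP range from below, and the log2 fold change was -0.23 (SE 0.11, edgeR Benjamini-Hochberg adjusted p = 0.395). Slc17a7, which encodes VGLUT1, had 47.3, 81.1, 73.2, 63.2 and 44.2 CPM in NG2 replicates 1 to 5, against 93.2, 56.5, 81.6, 67.2 and 55.96 CPM in GFAP replicates 1 to 5. Its spread within each group was wide, and the log2 fold change was -0.20 (SE 0.18, edgeR Benjamini-Hochberg adjusted p = 0.693). Slc32a1, the transporter gene of GABA and glycine neurons, had 31 reads in the NG2 and 29 reads in the GFAP group and did not reach the expression filter.

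Endocytosis genes had 3 positive and 2 negative fold changes among 5 (median 0.02; 2 positive and 3 negative with a median of -0.06 without GFAP replicate 2), with 0 past the threshold by edgeR, at an unadjusted p under 0.05 or by DESeq2. Bin1, an amphiphysin of broad expression that bends membranes, had 57.6, 80.1, 66.00, 62.8 and 51.9 CPM in NG2 replicates 1 to 5, against 58.2, 45.1, 53.9, 60.8 and 47.3 CPM in GFAP replicates 1 to 5. GFAP replicates 1, 3 and 4 lay within the NG2 range and NG2 replicate 2 was the highest library. The log2 fold change was 0.26 (SE 0.13, edgeR Benjamini-Hochberg adjusted p = 0.406). Sh3gl2 (endophilin-A1) averaged 59.6 ± 19.5 CPM over NG2 and 48.1 ± 7.82 CPM over GFAP libraries, with NG2 replicate 5 at 29.7 CPM below all other libraries (0.31, SE 0.21). Amph (amphiphysin) averaged 13.7 ± 2.47 CPM over NG2 and 13.5 ± 2.89 CPM over GFAP libraries (0.02, SE 0.18). Dnm1 (dynamin-1, which cuts vesicles from the membrane) averaged 10.03 ± 2.01 CPM over NG2 and 10.98 ± 2.91 CPM over GFAP libraries (-0.13, SE 0.22), and Synj1 (synaptojanin-1, which removes the coat by its lipid phosphatase) 37.7 ± 4.53 CPM over NG2 and 44.8 ± 5.74 CPM over GFAP libraries (-0.24, SE 0.12).

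**Figure D2:**
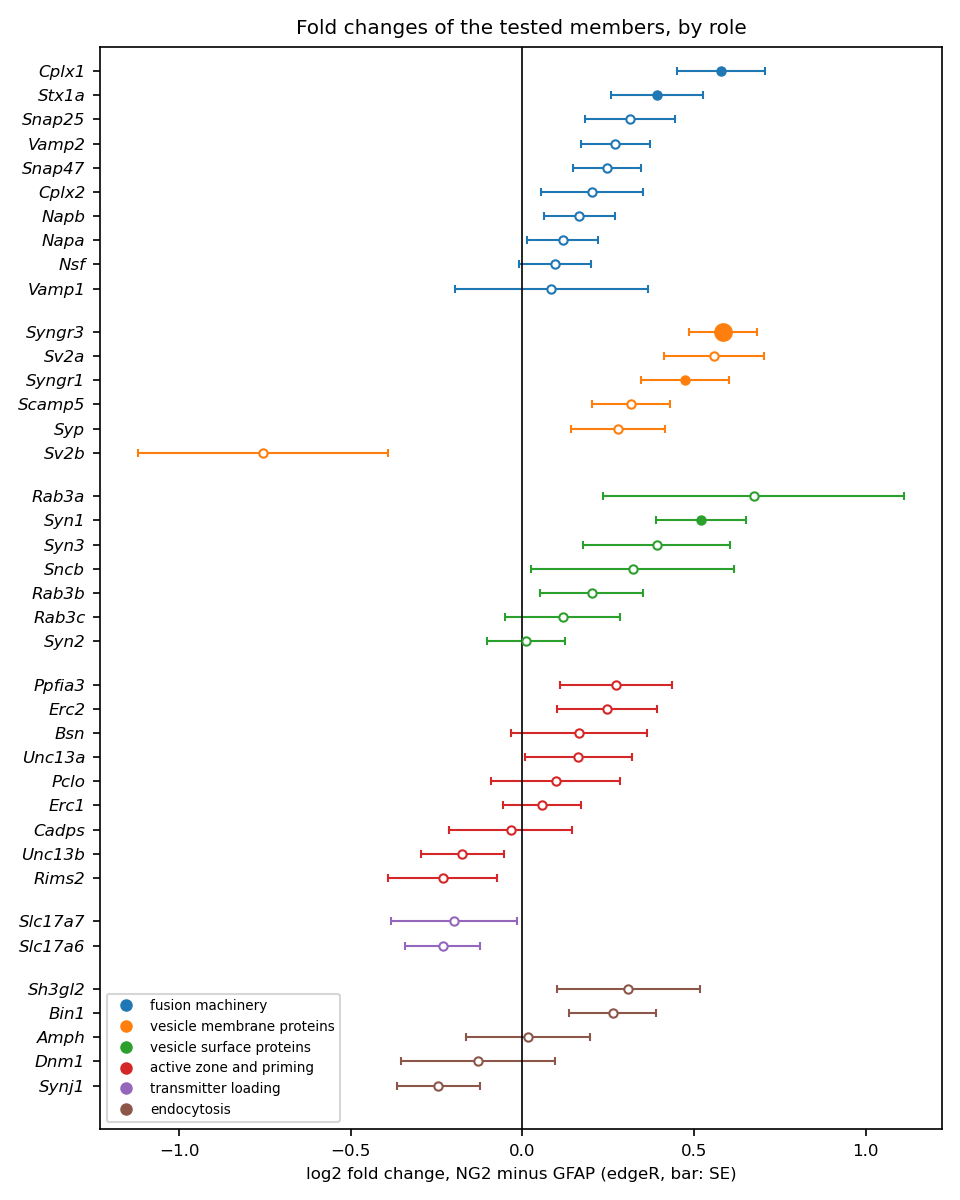
Log2 fold change (x axis, NG2 minus GFAP, edgeR, bars ± SE) of the 39 tested members, grouped by role in colour, with filled points where the groups did not overlap and the large point for the member past the adjusted threshold (Syngr3, 0.58). The 10 fusion genes lie right of 0, the 2 glutamate transporter genes lie left of it, and Sv2b lies lowest at -0.75.

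Over the tested members, 31 log2 fold changes were positive and 8 negative (median 0.20), where 48.5% of all tested genes were positive with a median of -0.01. By voom with sample weights it was 22 positive and 17 negative with a median of 0.11. The summary also rests in part on 1 library, since without GFAP replicate 2 it was 26 positive and 13 negative with a median of 0.15. Without NG2 replicate 5 as well it was 23 and 16 with a median of 0.14. Fusion and vesicle membrane genes kept medians of 0.24 and 0.35 without both libraries, while active zone genes had -0.13 with 2 positive and 7 negative. With both libraries left out, edgeR called Syngr3 and Cplx1 higher and 0 members lower.

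GFAP replicate 2 was the lowest library for 7 of 9 active zone genes and for 3 of 10 fusion genes, and NG2 replicate 5 was the highest library for 6 of those 9 and 2 of those 10. Over all tested genes, GFAP replicate 2 was the lowest library for 13.1%. NG2 replicate 5 was the highest for 19.8% of all tested genes, near its share of the fusion genes, and the lowest for 27.4%. The median deviation of the 39 members from their mean over the libraries, in log2(CPM + 1), was 0.05, 0.19, 0.12, 0.04 and 0.09 in NG2 replicates 1 to 5 and 0.09, -0.34, -0.02, -0.03 and -0.16 in GFAP replicates 1 to 5. In the same order, that of 14 neuron markers was 0.05, 0.26, 0.40, 0.11 and -0.01 in NG2 and 0.02, -0.42, -0.10, -0.13 and -0.17 in GFAP libraries. That of 11 radial glia markers was 0.07, -0.62, -0.32, 0.01 and 0.09 in NG2 and 0.01, 0.56, 0.04, 0.03 and 0.00146 in GFAP libraries. GFAP replicate 2 was thus the lowest library in vesicle genes and neuron markers and the highest in radial glia markers, and NG2 replicates 2 and 3 were the highest in vesicle genes and neuron markers and the lowest in radial glia markers.

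**Figure D3:**
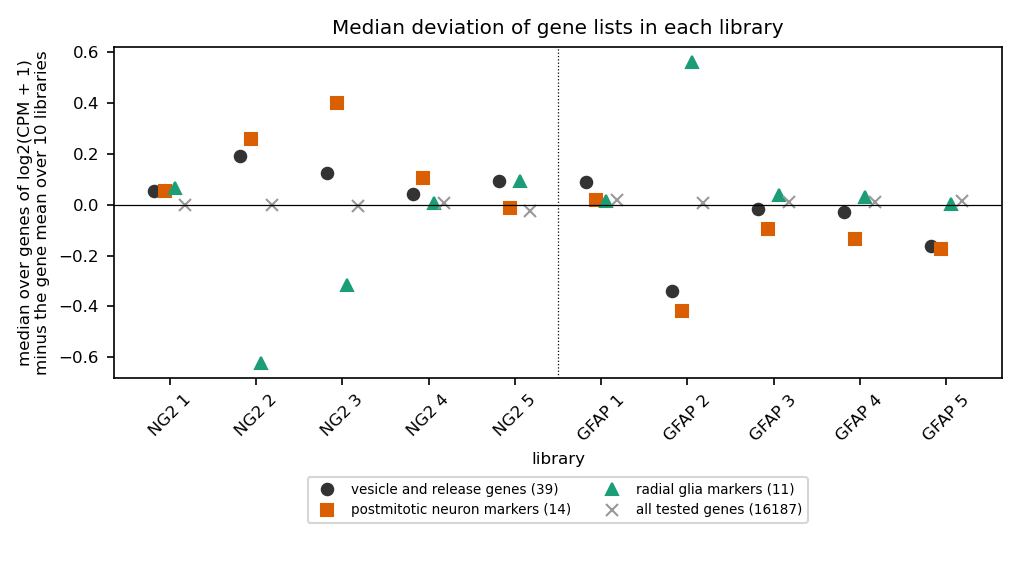
Median over genes of log2(CPM + 1) minus the gene's mean over 10 libraries (y axis), for each NG2 and GFAP library (x axis) and for the 39 vesicle and release genes, the 14 neuron markers, the 11 radial glia markers and all 16187 tested genes. GFAP replicate 2 lies at -0.34 for the vesicle genes and at 0.56 for radial glia markers, while the median of all tested genes stays near 0 in every library.

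Fold change went with gene length among the members. Across the 39 tested members, Spearman's rho between deposited gene length and log2 fold change was -0.60, where it was -0.10 across 16168 tested genes. For transcript GC content rho was 0.45 among members and 0.17 across all tested genes (genes share the same 10 libraries, and length and GC content go together). The 20 shorter members, of 2071 to 5399 bases, had a median log2 fold change of 0.27 with 17 positive, and included all 5 whose groups did not overlap. The 19 longer members, of 6551 to 22746 bases, had a median of 0.10 with 14 positive and 0 without overlap. With an offset for GC content and gene length, a setting chosen after the data were seen, the median of the active zone genes was 0.24 with 8 positive and 1 negative, that of the fusion genes 0.24, and Syngr3 remained the one member called by edgeR.

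**Figure D4:**
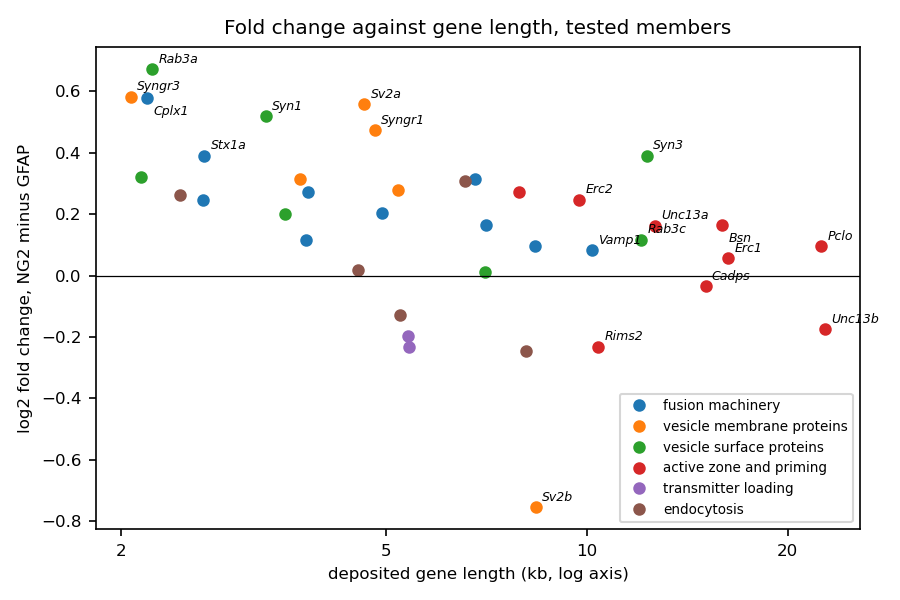
Log2 fold change (y axis, NG2 minus GFAP, edgeR) against deposited gene length (x axis, kb, log axis) for the 39 tested members, coloured by role. The members without overlap (Syngr3, Cplx1, Stx1a, Syn1 and Syngr1) lie among the 20 shorter genes, and the active zone genes lie towards the long end, from -0.23 for Rims2 to 0.27 for Ppfia3.

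Levels were compared between genes in the deposited FPKM, which are counts per unit of gene length and depth. The members spanned a wide range, with 15 at a mean of at least 10 FPKM over the 10 libraries, 20 between 1 and 10 FPKM and 8 under 1 FPKM. Snap47 led at 93.6 FPKM, followed by Vamp2 at 67.3 and Napa at 62.4, which stood above 96.2%, 94.3% and 93.8% of all tested genes. The SNARE partners of release were thus unequal in level, with Vamp2 at 67.3, Snap25 at 23.7 and Stx1a at 14.2 FPKM. Tested active zone genes ran from 6.28 FPKM for Erc1, above 55.96% of all tested genes, to 1.56 FPKM for Bsn, above 27.99%.

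Paralogues were unequal in level. Among complexins, Cplx1 had 25.1, 32.4, 29.3, 27.6 and 21.5 FPKM in NG2 replicates 1 to 5, against 20.99, 15.97, 20.1, 15.7 and 17.3 FPKM in GFAP replicates 1 to 5. Cplx2 had 14.3, 11.4, 17.04, 14.2 and 15.4 FPKM in NG2 replicates 1 to 5, against 13.01, 11.04, 13.2, 16.2 and 8.86 FPKM in GFAP replicates 1 to 5. Cplx1 was above Cplx2 in 9 of 10 libraries and their ranges overlapped, so the order of these neighbours does not go beyond their spread. In CPM, which leave gene length out, Cplx2 (4928 bases) averaged above Cplx1 (2189 bases). The means of Cplx2 and Cplx1 were 71.7 and 59.8 CPM over NG2 and 62.3 and 40.0 CPM over GFAP libraries. Among synaptogyrins, Syngr3 had 35.2, 40.1, 44.97, 38.2 and 36.3 FPKM in NG2 replicates 1 to 5, against 28.2, 23.2, 27.9, 24.5 and 24.95 FPKM in GFAP replicates 1 to 5. Syngr1 had 4.40, 5.55, 5.59, 4.40 and 4.32 FPKM in NG2 replicates 1 to 5, against 3.52, 3.41, 3.81, 3.26 and 3.31 FPKM in GFAP replicates 1 to 5. Syngr3 was 7.78 times Syngr1 on average, with ranges that did not overlap.

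Among synapsins, Syn1 had 18.3, 20.05, 15.7, 15.9 and 21.5 FPKM in NG2 replicates 1 to 5, against 13.9, 9.60, 14.4, 12.2 and 13.03 FPKM in GFAP replicates 1 to 5. Syn2 had 9.27, 10.1, 10.1, 8.91 and 11.9 FPKM in NG2 replicates 1 to 5, against 11.7, 8.64, 9.83, 10.6 and 8.68 FPKM in GFAP replicates 1 to 5. Syn3 had 0.955, 0.804, 0.530, 0.643 and 1.06 FPKM in NG2 replicates 1 to 5, against 0.760, 0.592, 0.623, 0.483 and 0.561 FPKM in GFAP replicates 1 to 5. Syn1 was above Syn2 in all 10 libraries in FPKM, although their ranges met at 9.60 to 11.9 FPKM, and Syn3 lay far below both. In CPM, which leave gene length out, Syn2 (7031 bases) averaged above Syn1 (3299 bases). The means of Syn2 and Syn1 were 71.1 and 60.7 CPM over NG2 and 70.6 and 42.3 CPM over GFAP libraries. The order of Syn1 and Syn2 thus depended on the measure. Among vesicular glutamate transporters, Slc17a6 had 23.9, 27.6, 26.4, 25.6 and 20.7 FPKM in NG2 replicates 1 to 5, against 29.9, 25.9, 25.8, 27.8 and 35.1 FPKM in GFAP replicates 1 to 5. Slc17a7 had 8.77, 14.98, 13.5, 11.6 and 8.10 FPKM in NG2 replicates 1 to 5, against 16.97, 10.4, 14.96, 12.3 and 10.2 FPKM in GFAP replicates 1 to 5. The VGLUT2 gene was thus above the VGLUT1 gene in all 10 libraries, by 2.21 times on average.

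Among Rab3 genes, Rab3c had 10.4, 9.47, 11.8, 8.80 and 6.67 FPKM in NG2 replicates 1 to 5, against 9.01, 5.41, 9.53, 9.34 and 9.77 FPKM in GFAP replicates 1 to 5. Rab3b had 4.72, 4.28, 5.72, 4.31 and 3.61 FPKM in NG2 replicates 1 to 5, against 4.38, 3.93, 3.49, 4.01 and 3.67 FPKM in GFAP replicates 1 to 5. Rab3a had 0.337, 0.586, 0.529, 0.587 and 0.250 FPKM in NG2 replicates 1 to 5, against 0.296, 0.140, 0.371, 0.341 and 0.271 FPKM in GFAP replicates 1 to 5. Rab3c was above Rab3b in all 10 libraries, with ranges that met between 5.41 and 5.72 FPKM, and Rab3b was 11.4 times Rab3a on average. In the SNAP family, Snap47 had 86.1, 118, 115, 102 and 89.6 FPKM in NG2 replicates 1 to 5, against 87.8, 82.96, 88.5, 82.4 and 84.4 FPKM in GFAP replicates 1 to 5. Snap25 had 27.1, 28.8, 30.1, 25.03 and 21.01 FPKM in NG2 replicates 1 to 5, against 22.2, 14.9, 22.2, 21.9 and 24.1 FPKM in GFAP replicates 1 to 5. Snap47 was above Snap25 in every library, by 3.95 times on average.

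Among synaptobrevins, Vamp2 had 77.01, 81.6, 75.1, 76.4 and 59.5 FPKM in NG2 replicates 1 to 5, against 64.2, 52.7, 65.7, 60.3 and 60.6 FPKM in GFAP replicates 1 to 5. Vamp1 had 0.811, 0.965, 0.654, 0.771 and 1.47 FPKM in NG2 replicates 1 to 5, against 1.13, 0.776, 0.450, 1.27 and 0.751 FPKM in GFAP replicates 1 to 5. Vamp2 was above Vamp1 in every library, by 74.4 times on average, with ranges far apart.

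**Figure D5:**
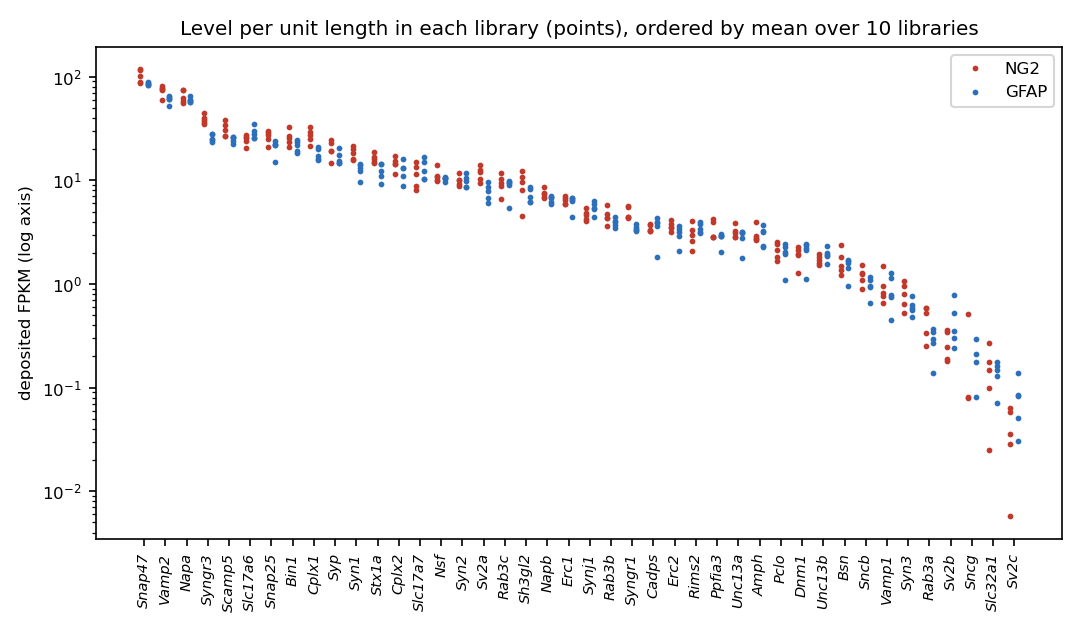
Deposited FPKM (y axis, log axis) of 42 members in each NG2 and GFAP library (points), ordered by the mean over 10 libraries, with Rims1 (1 read in all) and values of 0 left out. Levels run from Snap47 at 93.6 FPKM to Sv2c at 0.0580 FPKM, and the points of the NG2 and GFAP groups overlap for most genes.

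The 4 members that did not reach the expression filter had few reads in any library. Rims1, the founding Rab3 effector of the active zone, had 0 reads in the NG2 group, which allows up to 3 counts or 0.169 to 0.209 CPM in a library (counting error only), and 1 read in the GFAP group. Sv2c had 28 reads in the NG2 and 55 in the GFAP group, and Sncg, which encodes gamma-synuclein of sensory and motor neurons, had 9 and 10. These genes were left out of the main test, and the reason for their few reads was not tested.

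Further genes of the vesicle cycle were read from a separate list of 71, of which 62 were tested. Log2 fold changes were positive for 38 and negative for 24 (median 0.07). By edgeR 0 passed in either direction, while 9 (14.5%) were higher and 2 lower at an unadjusted p under 0.05, against 6.45% and 6.33% of all tested genes. Of 54 genes that it adjusted, DESeq2 called 3 higher (Cltb, Snap91 and Sh3gl3) and 1 lower (Cadps2), against 1.6% and 1.01% of all genes it adjusted. Cltb, a clathrin light chain, averaged 67.1 ± 8.99 CPM over NG2 and 50.7 ± 2.37 CPM over GFAP libraries, and its groups did not overlap (0.40, SE 0.10, edgeR Benjamini-Hochberg adjusted p = 0.151, DESeq2 adjusted p = 0.0189). Snap91, the clathrin assembly protein AP180 of neurons, averaged 52.7 ± 8.15 CPM over NG2 and 37.2 ± 7.16 CPM over GFAP libraries (0.50, SE 0.15). Sh3gl3, an endophilin that was chosen after its values were seen, averaged 23.97 ± 5.15 CPM over NG2 and 16.5 ± 2.00 CPM over GFAP libraries (0.54, SE 0.16). Cadps2, the paralogue of Cadps, averaged 2.09 ± 0.989 CPM over NG2 and 4.83 ± 0.839 CPM over GFAP libraries with every NG2 library below every GFAP library (-1.21, SE 0.33, edgeR Benjamini-Hochberg adjusted p = 0.164). Of the 62 tested, 1 gene thus showed no overlap with NG2 above (1.61%) and 1 with NG2 below. These shares were near the 1.52% and 1.76% of all tested genes. The genes with the highest FPKM were those of the clathrin coat, the adaptor subunits Ap2s1 (0.26, SE 0.10) and Ap2m1 (0.22, SE 0.09) and the light chain Clta (0.06, SE 0.09), and none of them passed by edgeR or DESeq2.

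Markers of further cell types were summed in the same way. Erythroid markers reached 205 to 478 CPM in NG2 and 199 to 365 CPM in GFAP libraries, microglia markers 21.8 to 262 and 34.9 to 127 CPM, and GABAergic markers 68.5 to 219 and 118 to 219.8 CPM. Cajal-Retzius markers reached 9.53 to 31.9 CPM in NG2 and 21.2 to 55.4 CPM in GFAP libraries, meningeal fibroblast markers 3.68 to 16.7 and 10.3 to 21.8 CPM, and endothelial and mural markers 8.07 to 26.6 and 6.88 to 27.3 CPM. All 5 erythroid and all 8 microglia markers had positive fold changes, and all 5 Cajal-Retzius and all 6 meningeal markers had negative ones. By edgeR and by DESeq2 0 markers of these 6 lists passed. At an unadjusted p under 0.05, 4 of 5 Cajal-Retzius and 1 of 6 meningeal markers were lower, against 6.33% of all tested genes. Oligodendrocyte precursor markers reached 8.55 to 17.6 CPM in NG2 and 4.63 to 9.03 CPM in GFAP libraries. Of 4 tested, 3 were positive, and Cspg4 alone passed the threshold by edgeR. Cspg4 encodes NG2, the marker of the sort, so neither its call nor its share of that sum is independent of the sort. Astrocyte markers reached 10.8 to 38.2 CPM in NG2 and 16.4 to 20.08 CPM in GFAP libraries, with 1 of 3 positive and 0 past the threshold. The part of these cells in the vesicle gene values was not tested.

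Of the 43 members, 31 overlap another annotated gene in the deposited coordinates. The strand setting of counting is not given, so reads in the shared stretches may be assigned to the wrong gene or lost. Some partners lie on the same strand, as Gm8738 does for Nsf, where a strand setting cannot separate them. Low counts and the order of paralogues are open to this error as well.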

How the data were processed

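Paired-end RNA-seq of 10 sorted-cell libraries was read from 1 table of 53801 genes. The deposited counts are whole reads per gene made by the authors, with HISAT2 (version not given), featureCounts 1.5.0-p3 and GRCm38.p6 named in the submitters' processing notes. The deposited FPKM are the authors' values per gene length and depth, per the file headers. The authors' own comparison columns were not used here. SMARTer amplification precedes poly(A) enrichment, per the labels' protocols, and the counts hold no molecular identifiers, so counting intervals and floors cover counting error only.

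Counts were filtered with filterByExpr, scaled by TMM and tested in R 4.3.3 with edgeR 4.0.16 (quasi-likelihood, group as the one term, no replicate block, Benjamini-Hochberg adjustment over 16187 genes, threshold 0.05), after a check on simulated data. CPM are TMM-scaled. Alternatives used limma 3.58.1, DESeq2 1.42.0 and, for GC content and length, mgcv 1.9.3. Log2 deviations used log2(CPM + 1). Members and lists were chosen with earlier results of these data known. Every-library values are given for members called by edgeR or DESeq2, members without overlap, the highest FPKM of each role and paralogues whose order is described, and the other members by group means or read counts. Snap25 and Vamp2 fall under paralogues. Of further vesicle cycle genes, the 3 with the highest FPKM and the 3 with the smallest p are named.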

Additional observations from a re-analysis of the deposited data

Results flagged for a closer look

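Among 85 groups of 5 libraries, 10 held a library whose gap to the nearest other, divided by the group's range, passed Dixon's critical value of 0.71. About 5% would pass for independent normal values, which these are not, since the genes share the same libraries. GFAP replicate 2 was low in 6 of the 10 groups. It had 102 CPM of Snap25, against 151 to 166 CPM in the other GFAP libraries, and 65.9 CPM of Rab3c, against 111 to 119.7 CPM. It had 73.4 CPM of Erc1, against 105 to 112 CPM, and 16.1 CPM of Ppfia3, against 23.1 to 24.2 CPM. It had 27.8 CPM of Cadps, against 55.4 to 66.6 CPM, and 5.90 CPM of Dnm1, against 11.33 to 13.003 CPM.

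NG2 replicate 5 was high in Nsf at 119 CPM, against 83.3 to 91.6 CPM in the other NG2 libraries. NG2 replicate 1 was high in Amph at 18.01 CPM, against 12.1 to 13.3 CPM. In genes of few reads, NG2 replicate 4 had 0.439 CPM of Sncg, against 0 to 0.0695 CPM in the other NG2 libraries. GFAP replicate 1 held the 1 read of Rims1 (0.0610 CPM), and a lone read always passes this criterion.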

How the results depend on the processing

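Without an expression filter, 2 members (Cplx1 and Syngr3) and 0.186% of all genes were called higher. DESeq2 called 5 members and 1.6% of all genes higher, voom with sample weights 7 and 3.61%, and the replicate block 0 and 0.00618%. When 1 library, or both NG2 replicate 5 and GFAP replicate 2, were left out, 0 to 2 members and 0.0181% to 0.669% of all genes were called higher. Voom called 2 of 39 members lower (Synj1 and Unc13b), near the share of all genes, where it called 857 of 16187 lower. Same-numbered deviations correlated at -0.09 to 0.08 and none was closest to its own number. These values showed no pairing by replicate number, but they cannot tell whether same-numbered libraries shared a preparation. The replicate block moved Syngr3 to an edgeR Benjamini-Hochberg adjusted p of 0.158. Of further vesicle cycle genes, DESeq2 called 3 higher and 1 lower, voom 4 higher and 3 lower, and fits with libraries left out 0 to 1. Members without overlap numbered 3 when scaled by library size alone (1.24% of all tested genes above and 2.16% below) and 5 to 8 with libraries left out (1.77% to 5.01% above and 2.1% to 7.22% below). The 8, without NG2 replicate 5 and GFAP replicate 2, were 7 above and 1 below (Unc13b). Over all genes, calls higher and lower numbered 210 and 133 by DESeq2, 584 and 857 by voom, 58 and 37 without a filter, 18 and 17 at 5 CPM or more in 5 libraries, 19 and 20 for protein-coding genes, 9 and 3 by limma-trend on FPKM, 1 and 0 with the block, and 3 to 109 and 0 to 154 with libraries left out. Genes tested numbered 13121 by DESeq2, 31106 without a filter, 11330 at the 5 CPM filter and 12930 for protein-coding genes. With libraries left out they numbered 16288 to 16555, and by voom, limma-trend and the block 16187. Some log2 fold changes near 0 changed sign. Scaled by library size, Syn2 was -0.0354 and Amph -0.0253. Syn2 was -0.00390 by upper quartile, -0.00408 at the 5 CPM filter and -0.00423 for protein-coding genes. By voom, Vamp1 was -0.16, Nsf -0.0223, Syn2 -0.17, Rab3c -0.0108, Bsn -0.17, Pclo -0.0276, Unc13a -0.0646, Erc1 -0.0912, Amph -0.10 and Clta -0.00423. Cadps was 0.0141 on log2(FPKM + 1), 0.0315 on log2(FPKM + 0.1), 0.0152 with the replicate block and 0.13 with the GC and length offset, where Unc13b was 0.00204. With libraries left out the ranges were -0.19 to 0.26 for Vamp1, -0.00741 to 0.14 for Nsf, -0.10 to 0.0799 for Syn2, -0.0103 to 0.22 for Rab3c, -0.13 to 0.26 for Bsn, -0.13 to 0.19 for Pclo, -0.0505 to 0.22 for Unc13a, -0.0395 to 0.0980 for Erc1, -0.24 to 0.0560 for Cadps and -0.0977 to 0.12 for Amph. The cause of these changes was not tested. The offset for GC content and length was chosen after seeing the data. Sv2c, Sncg, Rims1 and Slc32a1 had too few reads for the expression filter and were left out of the main test.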
